A study of Mus musculus with 9 samples.

Results

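CD115, the protein encoded by Csf1r, was used as a sort marker for myeloid cells of the mouse peritoneal cavity, and the cells sorted as CD115+ are compared here with those sorted as CD115-. All 9 libraries of the series enter, 6 of them CD115+ and 3 CD115-, each placed by its labelled sort markers. All cells were MHCII+ and came from lavage of C57BL/6 mice at post natal week 8, with no transgene or treatment named. The CD115+ side holds SPM, labelled small peritoneal macrophages and sorted as CD11c-, together with the subsets P-IV.II and P-IV.I, which were CD11c+. P-IV.II carries the macrophage label and P-IV.I the dendritic label. The CD115- side holds PcDC2 and PcDC1, type 2 and type 1 dendritic cells, both CD11c+. Each population has 2 libraries except PcDC1, which has 1. No CD115- macrophage is among the groups, so the marker and the macrophage label part only through P-IV.I. Whether libraries of a population came from separate animals is not given in the sources used here, so p-values reflect the spread of these libraries alone, which may be technical.

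CD115 is a receptor tyrosine kinase for the cytokines CSF1 and IL-34, and its signal sustains the survival and differentiation of monocytes and macrophages. Conventional dendritic cells depend instead on the receptor FLT3, although some dendritic cells and their precursors also carry CD115. Transcription of Csf1r in the macrophage lineage is known to use the factor PU.1, encoded by Spi1, together with C/EBP and other factors.

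Gene expression was measured by RNA sequencing and is given as FPKM, fragment numbers divided by transcript length and by library size. FPKM totals per library lay between 439597 and 647385, and 9115 to 9847 genes per library reached an FPKM of 1. PcDC1 stood apart, with 12911 genes listed at 0 against 10699 to 11303 in the other libraries. Read depth is unknown. Genes of other cell types were scarce: the B cell list took at most 0.0194% of the FPKM of any library, the T and NK cell list at most 0.0076% and the neutrophil list at most 0.0424%. Immediate early and stress genes, which are induced within minutes by many stimuli, took 4.06% and 4.71% in P-IV.I and 4.70% and 3.58% in PcDC2, but 0.626% to 2.97% in the macrophage libraries and 1.61% in PcDC1. None of the 27 tested members of that list separated the CD115 sides. Of all tested genes, 6.84% were higher in every CD115+ library and 3.66% lower. In P-IV.I minus the mean of SPM and P-IV.II, 8 of the 27 passed as higher by limma at an adjusted p of 0.05, where 8.76% of all genes did. The part of the list in the results below was not tested.

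Csf1r RNA followed the sort. Its level was 476 and 739.8 (SPM), 293 and 327 (P-IV.II), 157 and 246 (P-IV.I), 5.08 and 6.86 (PcDC2) and 0 FPKM (PcDC1), with the gene at chromosome 18, 61105572 to 61131139 (GRCm38.p6, as all positions here). The lowest CD115+ library was 22.8 times the highest CD115- library. As the sort marker itself, Csf1r checks the labels and is not a finding. No other gene of the gate was higher in every CD115+ library. Itgax, which encodes CD11c, was at 2.29 and 2.04 (SPM), 32 and 22.2 (P-IV.II), 105 and 94.8 (P-IV.I), 91 and 77.7 (PcDC2) and 27.1 FPKM (PcDC1), so its high libraries lie on both sides. H2-Ab1, an MHC class II chain, was at 13821 and 9889 (SPM), 16564 and 16859.7 (P-IV.II), 15393 and 14869 (P-IV.I), 19644 and 17489 (PcDC2) and 25311 FPKM (PcDC1), abundant in every population. Its CD115+ libraries all lay below the CD115- libraries, but the log2 difference of -0.57 between the sides did not pass in limma (adjusted p = 0.635).

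Genes that follow CD115 were sought between the pooled sides and, within the dendritic label, between P-IV.I and PcDC2. Within the macrophage label this could not be asked, since no CD115- macrophage is among the groups. A gene was taken when it passed an adjusted p of 0.05 in CD115+ minus CD115- and in P-IV.I minus PcDC2, in the same direction, and when none of the 6 CD115+ libraries overlapped any of the 3 CD115- libraries. Both comparisons were made with limma on log2(FPKM + 1) over 10526 genes with Benjamini-Hochberg adjustment. Differences are on that scale with their standard error, and understate the change of low genes. The first comparison treats population as a random effect, because libraries of a population are not independent readings of the marker. The second sets the CD115+ population with the dendritic label against the CD115- type 2 dendritic cells, 2 libraries against 2. The comparisons share the P-IV.I and PcDC2 libraries and are not independent of each other.

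In CD115+ minus CD115-, 38 genes were higher (0.361% of those tested) and 1 was lower (0.0095%). A fit of population means with equal weight per population, in place of the random effect, called 2246 higher and 1970 lower. It takes its spread only from libraries within a population, so any difference between populations counts there towards the sides. The one-sided split holds for the fit used here and not for that one. In P-IV.I minus PcDC2, 63 were higher (0.599%) and 14 lower (0.133%), a split of 36 and 23 at a pseudocount of 5 and of 45 and 38 with any gene above 0 in 2 libraries kept. By ranges alone, 720 genes lay higher in every CD115+ library (6.84%) and 385 lower (3.66%). All conditions together were met by 34 genes that were higher (0.323%) and by 0 that were lower. At an unadjusted p under 0.05 in both limma comparisons, with no overlap, 302 genes were higher and 79 lower. A fit without the population term gave 50 higher and 1 lower, the latter being Cacnb3. The count of 34 depended on single libraries. It was 8 without PcDC1, 10 without P-IV.I replicate 2 and 10 without either PcDC2 library, 14 and 15 without SPM replicates 1 and 2, and 17 and 18 without P-IV.II replicates 1 and 2. It was 32 without P-IV.I replicate 1, of which 25 were among the 34. The 8 without PcDC1 held 6 of the 34, and 1 of the 8 was lower. In the other runs with a library left out, every gene was among the 34. The count for CD115+ minus CD115-, 39 in all, was 79 without P-IV.I replicate 1 and 8 to 22 without any other single library. The 77 genes of P-IV.I minus PcDC2 became 47 and 18 without P-IV.I replicates 1 and 2, 24 and 15 without PcDC2 replicates 1 and 2, and 50 without either SPM library. Separation by ranges, 1105 genes in all, became 1810 without P-IV.I replicate 1 (963 higher and 847 lower), 1921 without PcDC2 replicate 1 (1065 and 856) and 2236 without PcDC1 (1035 and 1201). The excess of higher genes by ranges was therefore turned by leaving out PcDC1. At the edge, Pparg lay just inside with an adjusted p of 0.0492 and Tlr8 just outside with 0.0509.

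**Figure D1:**
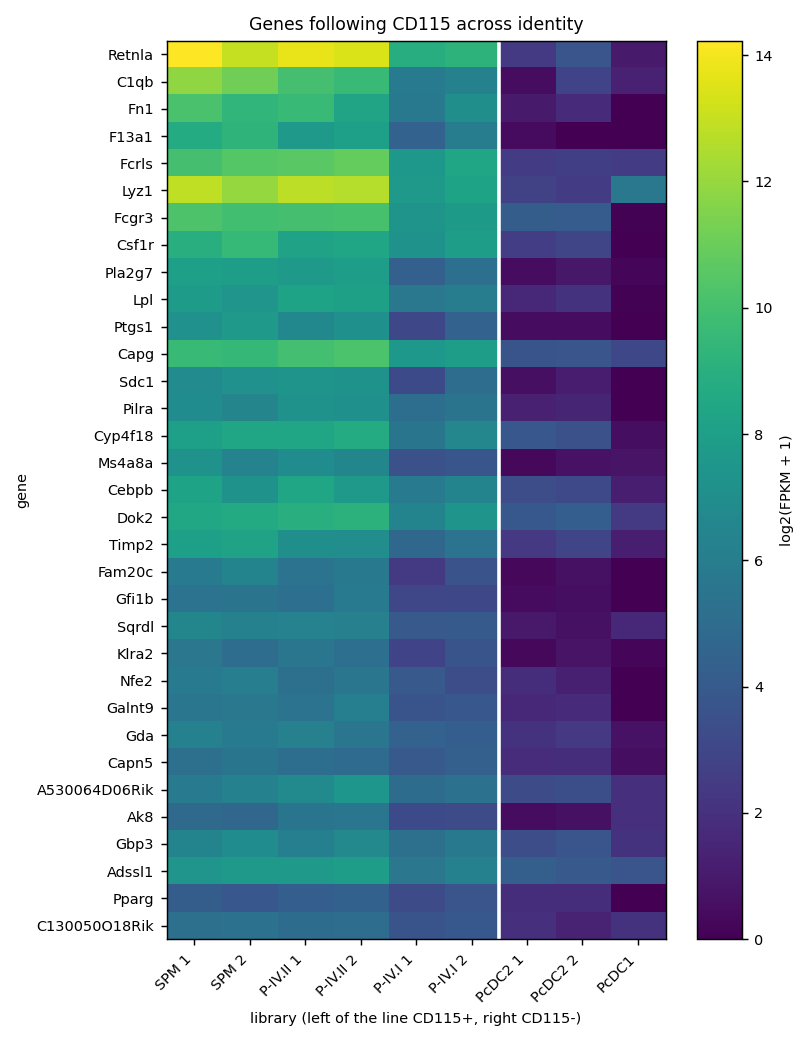
Levels of 33 of the 34 genes that follow CD115, as log2(FPKM + 1) by colour, with 1 row per gene in order of the CD115+ minus CD115- difference and 1 column per library. CD115+ libraries are left of the white line and CD115- libraries right of it, and the P-IV.I columns are darker than the SPM and P-IV.II columns in all 33 rows.

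Only Csf1r and 4 other genes stayed among those that follow CD115 whichever of the 9 libraries was left out: Fcrls, Pilra, Capg and Lpl. Fcrls, a scavenger receptor of the Fc receptor-like family, was at 1039 and 1421 (SPM), 1555 and 1863 (P-IV.II), 191 and 339 (P-IV.I), 4.46 and 5.24 (PcDC2) and 4.83 FPKM (PcDC1), on chromosome 3, 87250736 to 87263765. Its lowest CD115+ library was 36.5 times the highest CD115- library. The difference was 7.12 ± 0.72 (adjusted p = 0.00285) between the sides and 5.45 ± 0.32 (adjusted p = 0.000658) for P-IV.I minus PcDC2, both by limma. Pilra, a paired inhibitory receptor for sialylated ligands, was at 120.4 and 88 (SPM), 159 and 139 (P-IV.II), 35 and 43.9 (P-IV.I), 1.44 and 1.74 (PcDC2) and 0 FPKM (PcDC1), on chromosome 5, 137821952 to 137836278. It differed by 5.67 ± 0.59 (adjusted p = 0.00285) between the sides and by 3.96 ± 0.25 (adjusted p = 0.000658) between P-IV.I and PcDC2 in limma. Like Csf1r, it was listed at 0 in PcDC1.

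Capg encodes a protein that caps actin filaments. Its level was 776 and 709 (SPM), 1007 and 1192 (P-IV.II), 189.5 and 253 (P-IV.I), 11.8 and 12.3 (PcDC2) and 7.48 FPKM (PcDC1), on chromosome 6, 72538282 to 72562983. The sides differed by 5.72 ± 0.60 (adjusted p = 0.00285) and P-IV.I exceeded PcDC2 by 4.07 ± 0.24 (adjusted p = 0.000658) in limma. All 3 CD115- libraries held some Capg RNA, with the lowest CD115+ library 15.4 times the highest of them. Lpl, the lipoprotein lipase that releases fatty acids from triglycerides, was at 226 and 172 (SPM), 301 and 267 (P-IV.II), 50.6 and 61.7 (P-IV.I), 2.12 and 3.26 (PcDC2) and 0.0699 FPKM (PcDC1), on chromosome 8, 68880555 to 68906932. Its limma differences were 6.15 ± 0.69 (adjusted p = 0.00348) between the sides and 3.96 ± 0.26 (adjusted p = 0.000658) for P-IV.I minus PcDC2. For both genes the P-IV.II libraries lay above the SPM libraries, the reverse of the order seen for Csf1r.

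**Figure D2:**
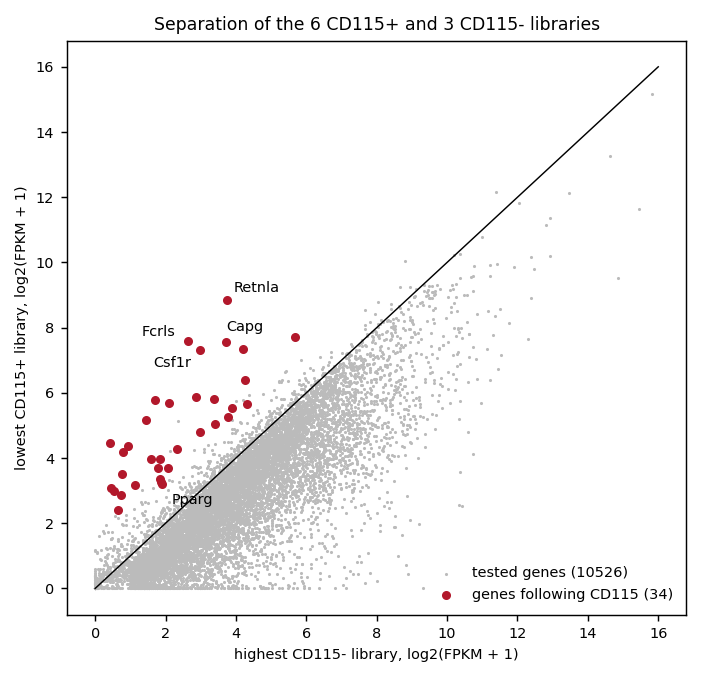
Separation of the CD115 sides for the tested genes, with the highest CD115- library on the horizontal axis and the lowest CD115+ library on the vertical axis, both as log2(FPKM + 1), and 1 point per gene. Points above the line have no overlap, and the 34 genes that follow CD115 (red) all lie there, with Retnla, Fcrls, Csf1r, Capg and Pparg named.

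Secreted products made up several of the other members. Retnla, a secreted resistin-like protein of alternatively activated macrophages, had the widest difference between the sides, 9.93 ± 1.3 (adjusted p = 0.0113) in limma. Its level was 19199.5 and 7951 (SPM), 13579 and 10979 (P-IV.II), 463 and 579 (P-IV.I), 4.29 and 12.3 (PcDC2) and 1.02 FPKM (PcDC1), on chromosome 16, 48842609 to 48844461. P-IV.I held 4.03% of the mean macrophage level, and still exceeded PcDC2 by 5.95 ± 0.52 (adjusted p = 0.00236). F13a1, the A subunit of coagulation factor XIII, was at 425 and 607 (SPM), 196 and 256 (P-IV.II), 21 and 63.1 (P-IV.I), 0.349 and 0 (PcDC2) and 0 FPKM (PcDC1), on chromosome 13, 36867178 to 37050244. It differed by 7.23 ± 0.98 (adjusted p = 0.0122) between the sides in limma, and the CD115- libraries were at or near 0. Fn1, encoding fibronectin, was at 1119.8 and 648 (SPM), 764 and 318 (P-IV.II), 53.4 and 133 (P-IV.I), 1.04 and 2.24 (PcDC2) and 0.0282 FPKM (PcDC1), on chromosome 1, 71585473 to 71653280. Its difference between the sides was 7.61 ± 1.03 (adjusted p = 0.0122).

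Pla2g7 encodes the hydrolase of platelet-activating factor and was at 258 and 242 (SPM), 205 and 242 (P-IV.II), 19.8 and 35.3 (P-IV.I), 0.395 and 0.891 (PcDC2) and 0.199 FPKM (PcDC1), on chromosome 17, 43567994 to 43612202, a difference of 6.35 ± 0.83 (adjusted p = 0.0113) between the sides in limma. C1qb, a chain of the complement recognition protein C1q, was at 3747 and 2241 (SPM), 1038 and 803 (P-IV.II), 57.3 and 74.2 (P-IV.I), 0.406 and 6.34 (PcDC2) and 1.43 FPKM (PcDC1), on chromosome 4, 136880126 to 136886200. Its limma differences were 7.63 ± 1.40 (adjusted p = 0.0492) between the sides and 4.36 ± 0.67 (adjusted p = 0.0339) for P-IV.I minus PcDC2, and it stayed a member in 1 of 9 runs with a library left out. Its partner chain C1qc missed the threshold between the sides at 6.43 ± 1.38 (adjusted p = 0.0714). Timp2, an inhibitor of metalloproteinases, ranged from 26.7 to 287 FPKM over the CD115+ libraries and reached at most 6.84 in the CD115- libraries.

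Among receptors and their adaptors, Fcgr3, an activating low-affinity receptor for IgG, was at 1206 and 977 (SPM), 1028 and 1108 (P-IV.II), 161 and 212 (P-IV.I), 17.4 and 16.4 (PcDC2) and 0.0776 FPKM (PcDC1), on chromosome 1, 171051169 to 171065915. The limma differences were 6.92 ± 1.01 (adjusted p = 0.0177) between the sides and 3.38 ± 0.24 (adjusted p = 0.000871) for P-IV.I minus PcDC2, and it remained a member in 8 of 9 runs with a library left out. The inhibitory receptor Fcgr2b did not pass, with 0.93 ± 0.45 (adjusted p = 0.463), and its levels were 480.0 and 352 (SPM), 468 and 351 (P-IV.II), 288 and 327 (P-IV.I), 289 and 275 (PcDC2) and 125 FPKM (PcDC1). Dok2, an adaptor that dampens signals of tyrosine kinases, was at 353 and 417 (SPM), 476 and 563 (P-IV.II), 83.5 and 166 (P-IV.I), 14.1 and 18.3 (PcDC2) and 4.37 FPKM (PcDC1), on chromosome 14, 70765889 to 70778494. It differed by 4.83 ± 0.71 (adjusted p = 0.0177) between the sides. Klra2, of the Ly49 receptor family, and Ms4a8a, a membrane protein of the MS4A family, were also members.

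Cebpb and Pparg, transcription factors with known roles in macrophages, were members too. Cebpb was at 299 and 158 (SPM), 328 and 209 (P-IV.II), 55.4 and 85.6 (P-IV.I), 9.44 and 7.67 (PcDC2) and 1.32 FPKM (PcDC1), on chromosome 2, 167688915 to 167690432 and differed by 4.99 ± 0.76 between the sides in limma (adjusted p = 0.0218). Pparg was at 17 and 13.3 (SPM), 17.9 and 20.7 (P-IV.II), 8.57 and 12.5 (P-IV.I), 2.64 and 2.61 (PcDC2) and 0.025 FPKM (PcDC1), on chromosome 6, 115360879 to 115490404 and differed by 2.93 ± 0.53 (adjusted p = 0.0492). Cebpb stayed in 5 of 9 runs with a library left out, and Pparg in 0 of 9. Gfi1b and Nfe2, factors best known from the erythroid and megakaryocyte lineages, were members at lower levels, with 7.02 to 57.3 and 9.25 to 67.2 FPKM over the CD115+ libraries. Spi1, which encodes PU.1, did not follow the marker: its level was 390.4 and 289.9 (SPM), 408 and 391 (P-IV.II), 481 and 390.5 (P-IV.I), 510.2 and 512 (PcDC2) and 410.2 FPKM (PcDC1), and the difference of -0.25 ± 0.38 (adjusted p = 0.782) did not pass.

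The remaining members were mostly enzymes. Ptgs1 is a cyclooxygenase, Cyp4f18 hydroxylates leukotriene B4, Gda is guanine deaminase and Capn5 is a calpain protease. Sqrdl oxidises sulfide, Ak8 and Adssl1 act on adenine nucleotides, Galnt9 is a glycosyltransferase and Fam20c is a kinase of secreted proteins. Lyz1 is a lysozyme, Gbp3 an interferon-inducible GTPase and Sdc1 the proteoglycan syndecan-1. A530064D06Rik and C130050O18Rik were also members. How reads shared by near copies were assigned is not given in the sources used here, so the values of Lyz1 (beside Lyz2), Klra2, Gbp3 and Pilra are uncertain to that extent.

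Within the CD115+ side, the dendritic-labelled population held less of these RNAs than the macrophage-labelled ones. For all 34 genes both P-IV.I libraries lay below every SPM and P-IV.II library. In P-IV.I minus the mean of SPM and P-IV.II, 33 of the 34 passed as lower by limma, where 532 of all genes were lower (5.05%) and 922 higher (8.76%). The exception was Pparg at -0.67 ± 0.23 (adjusted p = 0.101). The members were picked as higher on a side made up mostly of macrophage-labelled libraries, which favours this direction, so the share over all genes is not a like measure. Of the 720 genes higher in every CD115+ library, 269 passed as lower in the same comparison and 0 as higher. Under median-ratio rescaling the split over all genes was 742 lower and 637 higher, and the median of all genes moved from 0.15 to -0.03. The 1454 genes called in this comparison became 582 and 777 without P-IV.I replicates 1 and 2. The P-IV.I level ran from 3.36% of the macrophage mean for C1qb to 61.1% for Pparg, with a median of 22.1%. For Csf1r it was 43.8%, a difference of -1.12 ± 0.28 (adjusted p = 0.0324). In these bulk samples, fewer cells of a type and less RNA per cell cannot be told apart.

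**Figure D3:**
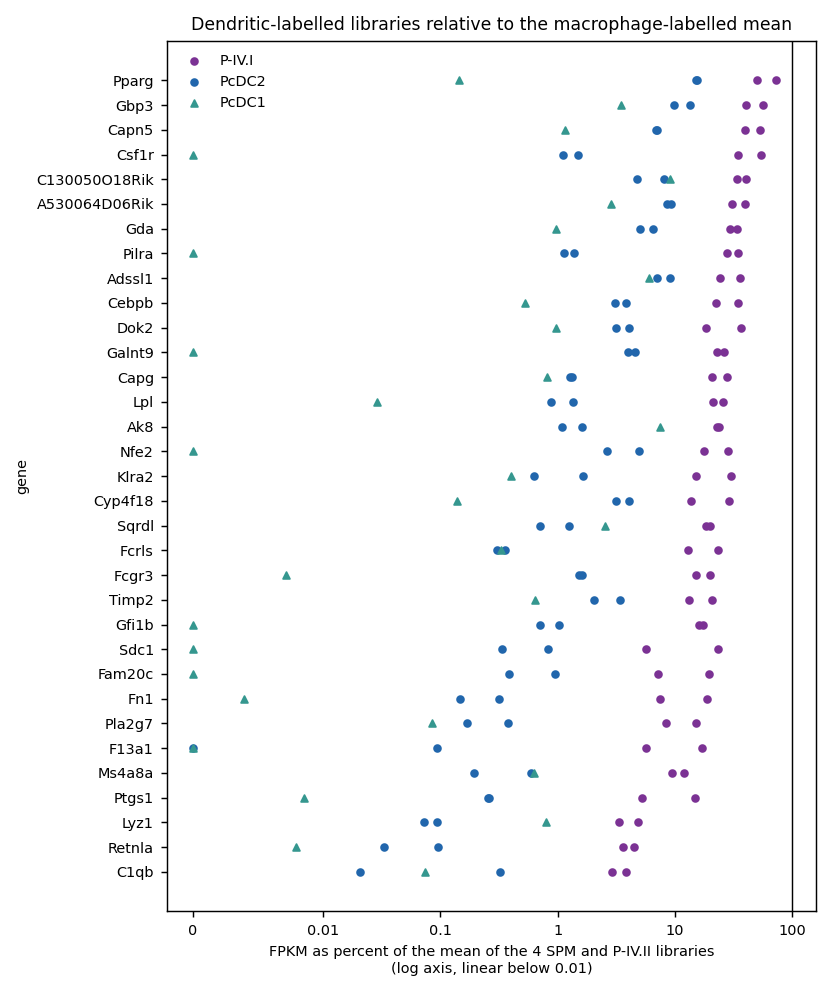
Each dendritic-labelled library's FPKM for 33 of the 34 genes as a percent of the mean of the 4 SPM and P-IV.II libraries, on a log axis that is linear below 0.01, with 1 point per library. For each gene both P-IV.I points lie right of its PcDC2 and PcDC1 points and left of 100, and their means run from 3.36% for C1qb to 61.1% for Pparg.

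The 35 measured genes of the macrophage core list took 7.26% to 8.90% of the FPKM of SPM and P-IV.II libraries, but 1.32% and 1.64% of the P-IV.I libraries. The share was 0.323% and 0.375% for PcDC2 and 0.530% for PcDC1. Lyz2, a member with its levels given below, made up most of the share in every library except those of PcDC2. The shares, and the order of PcDC1 above PcDC2, therefore reflect mainly that gene and not the list as a whole. Of the list's 34 tested members 7 passed as higher in P-IV.I minus PcDC2, where 0.599% of all genes did. In P-IV.I minus the macrophage-labelled mean 20 passed as lower, where 5.05% did. None of the list was at 0 in every library, and Mrc1 was listed at 0 in PcDC1. The list's part in the result was not tested.

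Between the CD115- populations, PcDC1 was below both PcDC2 libraries for 26 of the 34 genes, above both for 5 and listed at 0 for 8. Lyz1 was the widest case above, at 50.0 FPKM in PcDC1 against 5.91 and 4.53 in PcDC2. Between the macrophage-labelled populations no common order was seen. The SPM mean was above the P-IV.II mean for 18 genes, and the libraries of these populations overlapped for 13.

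Some macrophage genes with more RNA in PcDC1 than in PcDC2 passed in P-IV.I minus PcDC2 but did not meet all conditions for following CD115. Cd36, a scavenger receptor for oxidised lipids, was at 226 and 391 (SPM), 128 and 195 (P-IV.II), 29.9 and 54.5 (P-IV.I), 3.75 and 1.4 (PcDC2) and 136 FPKM (PcDC1). It exceeded PcDC2 in P-IV.I by 3.62 ± 0.45 (adjusted p = 0.0138) in limma, while the sides differed by 2.77 ± 1.3 (adjusted p = 0.45). Cd81, a tetraspanin, was at 508 and 635 (SPM), 557 and 832 (P-IV.II), 134 and 136 (P-IV.I), 16 and 13.1 (PcDC2) and 842 FPKM (PcDC1), with PcDC1 the highest of all libraries. Lyz2, the lysozyme of myeloid cells, was at 39816 and 26288 (SPM), 39111 and 42725 (P-IV.II), 4538 and 5223 (P-IV.I), 358 and 566 (PcDC2) and 2703 FPKM (PcDC1). Its libraries did not overlap between the sides, but the difference of 4.18 ± 0.96 (adjusted p = 0.0968) did not pass. These genes were chosen after their values were seen.

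**Figure D4:**
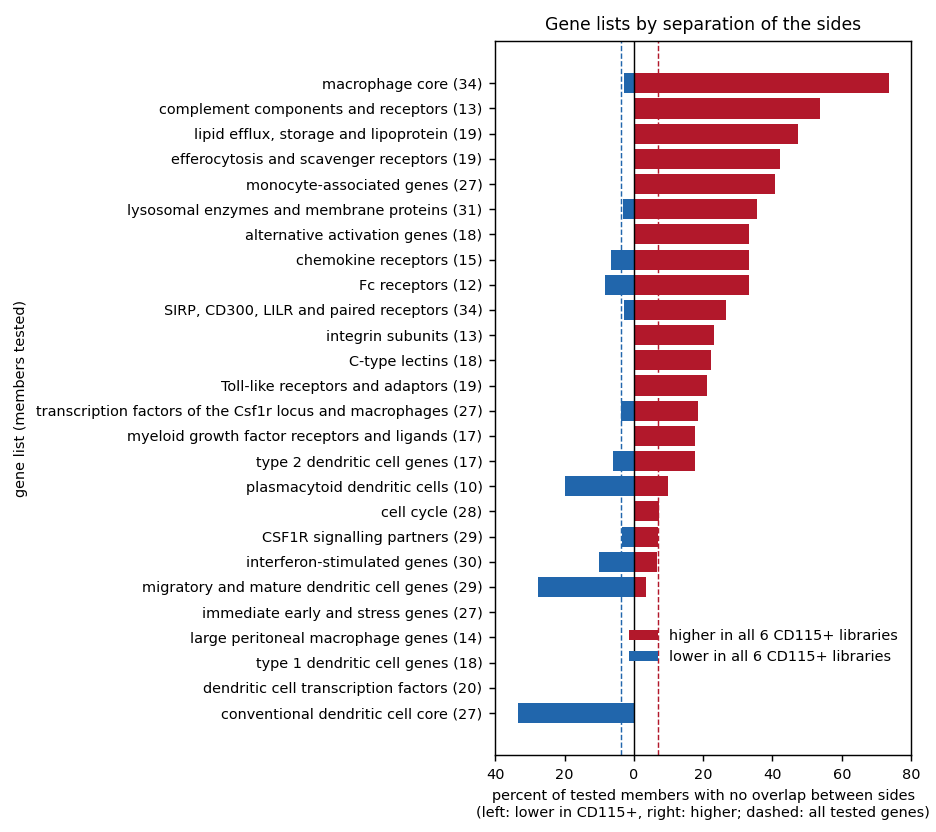
Percent of each list's tested members whose CD115+ libraries all lie above (red, right) or all below (blue, left) the CD115- libraries, with dashed lines for all tested genes. The macrophage core list has 25 of 34 members above and the conventional dendritic cell core list 9 of 27 below.

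In the macrophage core list 25 of 34 tested genes were higher in every CD115+ library and 1 was lower, against 6.84% and 3.66% of all genes, and its median difference was 2.23 where that of all genes was 0.01. Adgre1, which encodes the macrophage antigen F4/80, was at 71.8 and 115 (SPM), 56 and 69.7 (P-IV.II), 40.7 and 57.9 (P-IV.I), 21.1 and 23.5 (PcDC2) and 6.59 FPKM (PcDC1) and did not pass, with 2.25 ± 0.55 (adjusted p = 0.12). In the complement list 7 of 13 were higher in every CD115+ library, in the lipid list 9 of 19, in the efferocytosis list 8 of 19 and in the lysosomal list 11 of 31. Few of these passed: at most 1 member of each of these 5 lists did in CD115+ minus CD115- by limma. Of the efferocytosis and lysosomal lists 0 passed, and 9 of 19 and 11 of 31 were higher at an unadjusted p under 0.05. Of all 10526 tested genes, 752 were higher at that unadjusted p. In the large peritoneal macrophage list 0 of 14 separated. Among monocyte-associated genes 11 of 27 were higher in every CD115+ library, and F13a1, Fn1, Lyz1 and Gda met all conditions.

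Of 29 tested partners of the CD115 signal 2 were higher in every CD115+ library, Dok2 and Dok3, and 1 was lower, Sos1, shares near those over all genes. Of 17 growth factor receptors and ligands 3 were higher in every CD115+ library, Csf1r, Csf3r and Kitl, against 6.84% of all genes. Csf1r alone passed in CD115+ minus CD115-. As the sort marker, its place in both counts was set by the gate and is not a finding. Csf2ra, a receptor chain for GM-CSF, was at 635 and 782 (SPM), 703 and 985 (P-IV.II), 309 and 572 (P-IV.I), 351 and 328 (PcDC2) and 111 FPKM (PcDC1) and did not pass, with 1.62 ± 0.59 (adjusted p = 0.319).

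In the conventional dendritic cell core list 9 of 27 tested members were lower in every CD115+ library and 0 higher, against 3.66% and 6.84% of all genes, and the other 18 overlapped. The list's median difference between the sides was -2.03, and 0 of the 27 passed by limma. At an unadjusted p under 0.05, 17 of the 27 were lower, where 444 of all 10526 tested genes were. In P-IV.I minus the macrophage-labelled mean 19 of the 27 passed as higher, where 8.76% of all genes did, and the median was 2.58. In P-IV.I minus PcDC2 1 passed as lower, where 0.133% of all genes did, and the median was -0.49. Between the sides the type 2 dendritic cell list lay the other way, with a median difference of 1.13. Of its 17 tested members 3 were higher in every CD115+ library (Clec4a2, Cd200r1 and Ccr2), 1 was lower and 0 passed by limma. In P-IV.I minus PcDC2 the list's median difference was -0.005. The list took 0.066% of the FPKM of PcDC1, against 0.657% and 0.687% in PcDC2. It took 0.397% to 0.476% in the SPM and P-IV.II libraries and 0.941% and 0.931% in P-IV.I. Of the 20 dendritic cell transcription factors and of the 18 type 1 dendritic cell genes, 0 separated. Flt3 was at 2.79 and 3.01 (SPM), 2.23 and 0.765 (P-IV.II), 102 and 118 (P-IV.I), 173 and 141 (PcDC2) and 102 FPKM (PcDC1), so P-IV.I lay with the CD115- populations. It differed by 5.18 ± 0.27 (adjusted p = 7.79e-05) from the macrophage-labelled populations and by -0.50 ± 0.31 (adjusted p = 0.987) from PcDC2 in limma, of which only the first passed.

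The gene that was lower in CD115+ minus CD115- was Chil5, of the chitinase-like family, at 0.0637 and 0 (SPM), 0.0621 and 0.0556 (P-IV.II), 2.23 and 1.33 (P-IV.I), 5.19 and 6.42 (PcDC2) and 15.7 FPKM (PcDC1). The sides differed by -2.83 ± 0.52 (adjusted p = 0.0492), while P-IV.I minus PcDC2 missed the threshold at -1.31 ± 0.24 (adjusted p = 0.0658). Cacnb3, a calcium channel subunit, was at 0 and 0.0163 (SPM), 0 and 0.0229 (P-IV.II), 0.878 and 1.56 (P-IV.I), 8.8 and 16.9 (PcDC2) and 5.13 FPKM (PcDC1). It passed for P-IV.I minus PcDC2 at -2.60 ± 0.31 (adjusted p = 0.0114) and missed between the sides at -2.83 ± 0.53 (adjusted p = 0.0545). For both genes P-IV.I lay between the macrophage-labelled and the CD115- libraries.

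Over the 9 libraries, genes were also ranked by likeness to Csf1r, as Pearson's r on log2(FPKM + 1). The ranking held 5107 genes with a mean FPKM of at least 10. Genes with predicted or clone-like names were left out, among them the members A530064D06Rik and C130050O18Rik. The libraries share populations and the ranking is a description. Capn5 came first with an r of 0.993, followed by Gbp3 with 0.988, and Tnfrsf21, Ltbp3 and Fcgr3 with 0.975 each. Pik3r6 had 0.974, Pilra, Lamp1 and Axl 0.973 and Lpl 0.972. Capn5 was at 37.3 and 45.1 (SPM), 34.6 and 30.5 (P-IV.II), 14.5 and 19.3 (P-IV.I), 2.52 and 2.6 (PcDC2) and 0.424 FPKM (PcDC1). Most opposite were Ccl5 at -0.957, Phkg2 at -0.951, Arpc5l at -0.947, Hes6 at -0.943 and Pak1ip1 at -0.941.

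**Figure D5:**
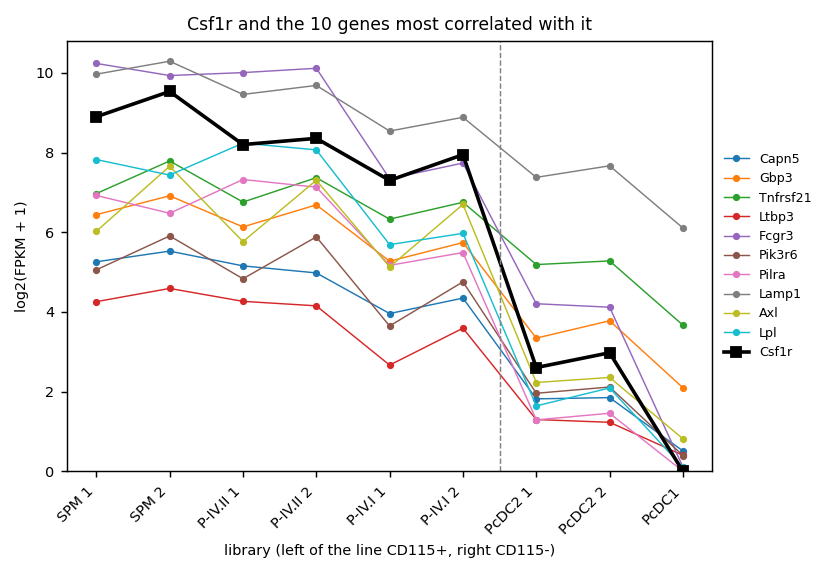
Levels over the 9 libraries of Csf1r and the genes with the most similar pattern, as log2(FPKM + 1) on the vertical axis, with 1 line per gene and a dashed line between the sides. Capn5, with an r of 0.993 to Csf1r, and Gbp3, with 0.988, follow it most closely, and the lines only join points of a gene, since libraries have no order.

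Promoters were read from RefSeq (GRCm38.p6), from 250 bases before to 50 after each start, for 27 of the 34 genes with 33 promoters. The motif of C/EBP factors, TTGCNNAA on either strand, was found in 12 of the 33 (36.4%) and in 8.62% of 10748 promoters of tested genes. By gene it was in 11 of 27 (40.7%) against 10.2%. Also by gene, the PU.1 motif GAGGAAGT was in 4 of 27 (14.8%) against 4.21%, and the interferon-stimulated response element (ISRE) in 3 (11.1%) against 4.18%. The AP-1 motif TGANTCA was in 3 (11.1%) against 6.01%, and the NF-kappaB motif in 1, Fcgr3 (3.70%), against 1.97%. No C/EBP match overlapped another of these motifs in the members' promoters. A match is letters in a window and not a shown binding site. Promoters of Retnla, with the widest difference, and of Fcgr3 and Pilra, among the most stable members, are printed 5′ to 3′ with the C/EBP match in capitals.
Retnla chr16:48842359-48842658 (plus strand): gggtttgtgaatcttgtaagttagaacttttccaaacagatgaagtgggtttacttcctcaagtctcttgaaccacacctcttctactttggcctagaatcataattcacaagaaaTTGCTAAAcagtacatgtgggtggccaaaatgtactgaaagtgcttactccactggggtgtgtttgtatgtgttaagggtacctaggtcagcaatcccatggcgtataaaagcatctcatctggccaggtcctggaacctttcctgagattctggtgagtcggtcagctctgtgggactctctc
Fcgr3 chr1:171059354-171059653 (minus strand): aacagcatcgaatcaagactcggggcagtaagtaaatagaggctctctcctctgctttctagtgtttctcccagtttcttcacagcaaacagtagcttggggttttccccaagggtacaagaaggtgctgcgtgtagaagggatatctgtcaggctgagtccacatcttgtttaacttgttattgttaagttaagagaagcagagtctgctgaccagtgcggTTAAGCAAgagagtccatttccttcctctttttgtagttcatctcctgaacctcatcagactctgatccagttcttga
Pilra chr5:137836229-137836528 (minus strand): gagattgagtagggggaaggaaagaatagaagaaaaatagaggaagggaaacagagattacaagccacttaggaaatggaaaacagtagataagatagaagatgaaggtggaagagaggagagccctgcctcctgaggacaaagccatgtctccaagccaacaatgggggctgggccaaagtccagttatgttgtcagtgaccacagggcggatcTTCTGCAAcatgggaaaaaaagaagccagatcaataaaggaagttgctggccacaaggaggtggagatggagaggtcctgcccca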

How the data were processed

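RNA of 9 libraries was sequenced from SMARTer Ultra Low cDNA on an Illumina NovaSeq, per the labels' protocols. Tools named in the submitters' processing notes are HISAT2 2.1.0, StringTie 1.3.4d, Cufflinks and bcl2fastq 1.8.4, with build mm10. The authors deposited FPKM values for 24532 genes, 8597 of them 0 in every library. What their normalization added to FPKM is not given in the sources used here. Whole reads could not be recovered: among genes under 0.1 FPKM in both libraries of a pair, at most 6.77% shared a ratio within 0.01 on the natural log scale. Depth is therefore unknown.

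From these values, log2(FPKM + 1) was computed for the 10526 genes that reached 1 FPKM in 2 or more libraries, and fitted with limma 3.58.1 in R 4.3.3 (eBayes with trend, two-sided). CD115+ minus CD115- had population as a random effect (correlation 0.685, 7 residual degrees of freedom, prior 4.50), which gives PcDC1 more weight than a plain mean of libraries would. The correlation is shared by all genes. The marker varies only between the 5 populations, while these degrees of freedom count libraries, so p-values of that comparison may be too small. The other comparisons came from a fit of 5 population means (4 residual degrees of freedom, prior 4.02). Benjamini-Hochberg adjustment ran over all tested genes of a comparison, and calls were made under 0.05. The CD115+ minus CD115- fit was tested on simulated data, with changed genes placed among those of a spread at or below the median. The fit of population means was not tested in this way.

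The members and gene lists were chosen with earlier results of these data known. Named genes were the sort gate, the members with the widest or most even differences, members of each list and the genes most and least like Csf1r. Genes outside that rule (such as Cd36, Cd81, Lyz2, Cacnb3, Flt3, Adgre1, Spi1, Csf2ra, Fcgr2b, C1qc, Tlr8 and Mmp12) were chosen after their values were seen. The values of 1 member are not reported here. Alternatives covered the pseudocount, filter, scaling, variance trend, population term, replicate block and each library left out.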

Additional observations from a re-analysis of the deposited data

How the results depend on the processing

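No gene that follows CD115 changed direction under any alternative run. The members were chosen for sides that do not overlap, so their direction could hardly change and is no measure of stability. Membership itself did change. Of the 34 genes, 32 were shared at a pseudocount of 0.1, where the count was 56, and 9 at a pseudocount of 5, where it was 9. A filter of any value above 0 gave 7, of which 6 were shared. CD115+ minus CD115- called 39 genes, against 9 at a pseudocount of 5 and 7 with the filter of any value above 0. It called 148 without the population term and 4216 with equal weight per population (2246 higher and 1970 lower). The equal-weight fit leaves out the spread between populations, so its count is not a like measure. Leaving out 1 library gave 8 to 79 genes for CD115+ minus CD115-, 15 to 75 for P-IV.I minus PcDC2, 582 to 1460 for P-IV.I minus the macrophage-labelled mean, 8 to 32 for the genes that follow CD115 and 1130 to 2236 for separation by ranges alone (1105 with all libraries), an alternative chosen after seeing the data. The cause of these shifts was not tested. Same-numbered libraries deviated together among the CD115+ populations, with correlations of deviations from the population means of 0.336 to 0.711, but not with PcDC2, at -0.284 to 0.0526, so the numbers were not taken as pairs. A replicate block, without PcDC1, gave 4 genes for CD115+ minus CD115-, 143 for P-IV.I minus PcDC2, 2047 for P-IV.I minus the macrophage-labelled mean and 4 that follow CD115, 3 of them among the 34. Under it Csf1r, Fcrls and Pilra stayed and Capg and Lpl did not, with adjusted p = 0.0638 and 0.0673 between the sides in limma.

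Single genes were followed only for the named genes, some chosen after their values were seen, and not for all tested genes. Among the named genes, differences between the sides that did not pass in the fit reported changed sign for 5. Of these, Sirpa (3.31) and Treml4 (-1.26) passed with equal weight per population. Without PcDC1 (with or without the block), Sirpa went to -0.18, Hba-a2 to -0.23 and Treml4 to 1.56. Pecam1 went to 0.32 at a pseudocount of 0.1 and to 0.11 without PcDC2 replicate 1. Tyrobp went to -0.052 without SPM replicate 1. With 1 library left out these differences ranged from -0.18 to 3.33 for Sirpa, -0.23 to 0.96 for Hba-a2 and -1.38 to 1.56 for Treml4. They ranged from -1.67 to 0.11 for Pecam1 and from -0.052 to 0.53 for Tyrobp. With unknown depth, values near 0 cannot be given a counting error.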

Other observations

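Mmp12, a macrophage metalloelastase, and Treml4, a receptor of the TREM family, passed as higher in P-IV.I minus PcDC2 and also in P-IV.I minus the macrophage-labelled mean. Mmp12 was at 0.0172 and 0 (SPM), 3.71 and 2.64 (P-IV.II), 5.04 and 6.33 (P-IV.I), 0.275 and 0.407 (PcDC2) and 0 FPKM (PcDC1). It exceeded PcDC2 in P-IV.I by 2.31 ± 0.23 (adjusted p = 0.00464) and the macrophage-labelled mean by 1.70 ± 0.20 (adjusted p = 0.00121) in limma. Treml4 was at 3.25 and 5.23 (SPM), 1.95 and 2.85 (P-IV.II), 14 and 13.6 (P-IV.I), 1.55 and 0.811 (PcDC2) and 106 FPKM (PcDC1), with PcDC1 the highest library. P-IV.I exceeded PcDC2 by 2.78 ± 0.30 (adjusted p = 0.00663) and the macrophage-labelled mean by 1.83 ± 0.26 (adjusted p = 0.00312) in limma. Both genes were chosen after their values were seen.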
